A study of Mus musculus with 47 samples.

Results

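Matrix metalloproteinases and the genes that restrain them are described here as a set of 10 genes out of the 45706 genes in the count tables. They were chosen by gene name, with earlier results of these data known. They are matrix metalloproteinases (Mmp2, Mmp3, Mmp9, Mmp10, Mmp13 and Mmp14), tissue inhibitors of metalloproteinases (Timp1, Timp2 and Timp3) and Adam12, a membrane-bound relative. Matrix metalloproteinases are zinc enzymes made as inactive precursors that cut collagens, gelatin, proteoglycans and cell-surface proteins once their propeptide is removed. Tissue inhibitors of metalloproteinases bind the active site of these enzymes, and the pro-form of MMP2 is activated at the cell surface by MMP14 with TIMP2 as the bridge. In skeletal muscle these proteins take part in the remodelling of the matrix around migrating and fusing myoblasts, and ADAM12 is a disintegrin and metalloproteinase known from myoblasts and regenerating muscle.

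The study asked how the amount of the muscle transcription factor MyoD1 and of the adhesion proteins Cdh23 and Mcam shapes differentiation of C2C12 cells, an established line of mouse myoblasts that fuse into multinucleated myotubes when serum is withdrawn. Gene expression was measured by RNA sequencing of polyadenylated RNA in 47 libraries from 16 groups. The iMyoD1 line keeps its own MyoD1 gene and carries a Halo-tagged MyoD1 transgene under the doxycycline-inducible (dox) TRE3G promoter, and the iCdh23 and iMcam lines carry inducible Cdh23 and Mcam. The transgenes were integrated with a transposon, and cells were selected with puromycin. The iMyoD1 line was used as a mixed population, not as 1 clone.

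The iMyoD1 cells were taken in growth medium (0 h, with dox or vehicle for 24 h) and after 24 h, 48 h and 120 h of serum withdrawal, with dox or vehicle present for the same time. At 120 h the whole culture was taken, and separate cultures were passed through a strainer after light trypsin treatment to give a fraction that passed a 40 µm mesh (myoblast-enriched) and a fraction retained by it (myotube-enriched). The iCdh23 and iMcam cells were taken at 48 h of serum withdrawal with dox or vehicle. Each group held 3 replicate libraries, except the myoblast-enriched fraction with dox, which held 2 (replicates 2 and 3). No group of cells without a transgene and with dox was used here, so an effect of the drug itself and of the transgene cannot be told apart.

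Total counts per library ran from 15066338 to 50950674 with a median of 22837926, and within each group they are listed from lowest to highest. In iMyoD1 cells at 0 h they were 16241606, 19306238 and 19335564 without dox and 17870297, 18451222 and 22238857 with dox, and at 24 h 25357816, 29046860 and 30444909 without and 23424043, 31416192 and 42023433 with dox. At 48 h they were 18598298, 20629489 and 24097187 without dox and 20522001, 40686437 and 50950674 with dox, and in the whole culture at 120 h 23360652, 23730220 and 24706845 without and 22370775, 24530749 and 25394011 with dox. The myoblast-enriched fraction held 21159855, 24920646 and 31387633 without dox and 20719642 and 31199043 with dox, and the myotube-enriched fraction 21686948, 25408844 and 26381360 without and 18337845, 23689662 and 35767813 with dox. The iCdh23 libraries held 21323935, 22680243 and 24238898 without dox and 19546087, 22837926 and 25110433 with dox, and the iMcam libraries 15066338, 16521346 and 20230829 without and 17000938, 17317223 and 19281774 with dox. The 0 h and 24 h libraries stood in 1 table of counts, the 48 h and whole-culture 120 h libraries in another, and the fractions, iCdh23 and iMcam in the last. The labels give a batch name, RNAseq_v2, to all libraries but those of 0 h and 24 h, so batch and time cannot be told apart in the step from 24 h to 48 h.

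Levels are given as counts-per-million (CPM), scaled by the trimmed mean of M-values (TMM), in the order of the replicate numbers, or as mean ± SD. Levels of different genes are compared only after division by the length of the annotated transcripts and scaling of each library to the same total (length-scaled level). Differences were tested with edgeR between the libraries of the groups compared, and a gene was called when its adjusted p (Benjamini-Hochberg over all genes tested) was under 0.05 and its change was more than 2-fold. A difference is written as a log2 fold change with its standard error (SE). The floor was set at 3 counts: where no library of a group exceeded it, the gene was taken to be at the floor there, and its fold change is written as a bound computed with 3 counts in each library. Beside each count of members called stands the share of all genes tested that was called the same way.

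Myotube genes followed time and fraction as the labels give them, with 1 exception among the fractions. The summed level of 6 myotube genes (Myh3, Ckm, Acta1, Ttn, Tnnt3 and Mymk) was 1.02, 2.1 and 2.0 CPM at 0 h without dox, 7.35, 6.56 and 7.89 at 24 h, 12188, 11571 and 10867 at 48 h and 15200.0, 12652 and 13054 at 120 h in the whole culture. Without dox it was 12642, 13570.0 and 19414 CPM in the myotube-enriched and 4956, 7188 and 6843 in the myoblast-enriched fraction, so the libraries of the fractions did not overlap. With dox the myotube-enriched fraction held 14282, 17807 and 4795 CPM and the myoblast-enriched fraction 4275 and 4517, and replicate 3 of the former lay close to the latter. The 4 myoblast genes (Myod1, Myf5, Des and Cdh15) were above 0 in every group and summed to between 294 and 3328 CPM, with Des the most abundant. Their sum, most of which was Des in the fractions, did not follow the labels of the fractions. Without dox it was 2277, 2893 and 2975 CPM in the myotube-enriched and 1533, 1884 and 1499 in the myoblast-enriched fraction, higher in every library of the former. With dox it was 3328, 3263 and 1434 CPM in the former and 1671 and 1595 in the latter, with overlap. Without dox, mean Des was 2179 CPM of a mean sum of 2715 in the myotube-enriched fraction. In the myoblast-enriched fraction without dox it was 1004 of 1639. Mean Myod1 without dox was 287 CPM in the myotube-enriched and 320 in the myoblast-enriched fraction, with overlap. This sum is therefore not read as a measure of the share of myoblasts. Summed markers of endothelium (Pecam1, Cdh5 and Kdr) stayed between 0 and 0.929 CPM and of adipocytes (Adipoq, Plin1 and Fabp4) between 0 and 0.25 CPM. Macrophage markers (Ptprc, Cd68, Adgre1 and Csf1r) ran from 0.242 to 16.6 CPM in sum, the highest in replicate 1 of the myotube-enriched fraction with dox. Proliferation genes (Mki67, Top2a, Ccnb1 and Cdk1) ran from 11.3 to 2036 CPM in sum and fibroblast markers (Pdgfra, Thy1 and Dcn) from 3.55 to 318 CPM. In bulk samples such as these, fewer cells of a type and less RNA per cell cannot be told apart.

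The induced genes did not all stand higher with dox. Mean Myod1 in iMyoD1 cells, its own gene and transgene not separated, was 178 CPM without and 188 with dox at 0 h, 135 and 117 at 24 h, 388 and 306 at 48 h, and 280.0 and 92.0 in the whole culture at 120 h. Cdh23 in iCdh23 cells was at 370.0, 348 and 451 CPM without and 568, 426 and 464 with dox, groups that overlapped, against 5.61, 8.86 and 8.71 in iMcam cells without dox. Mcam in iMcam cells was at 19.8, 17.1 and 17.3 CPM without and 69.0, 70.2 and 74.7 with dox, and did not overlap. Protein of these genes was not analysed here. The study reports Halo-MyoD1 protein in a part of the nuclei of iMyoD1 cells treated with dox. The part of the RNA levels of the induced genes in the results for the members was not tested.

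Among the 10 genes, 6 were expressed in every group (Mmp2, Mmp14, Timp1, Timp2, Timp3 and Adam12) and 4 were near or at the floor (Mmp3, Mmp9, Mmp10 and Mmp13). At 48 h without dox in iMyoD1 cells the mean length-scaled level was 556 for Mmp2, 343 for Timp2, 228 for Mmp14, 209 for Timp1, 94.9 for Timp3 and 13.0 for Adam12. In the whole culture at 120 h without dox the order by length-scaled level was Timp2 (628), Mmp2 (386), Timp1 (258), Mmp14 (230.0), Timp3 (203) and Adam12 (27.4). Thus a secreted gelatinase and its bridging inhibitor held the highest places at both times, and Adam12 the lowest among the 6.

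**Figure D1:**
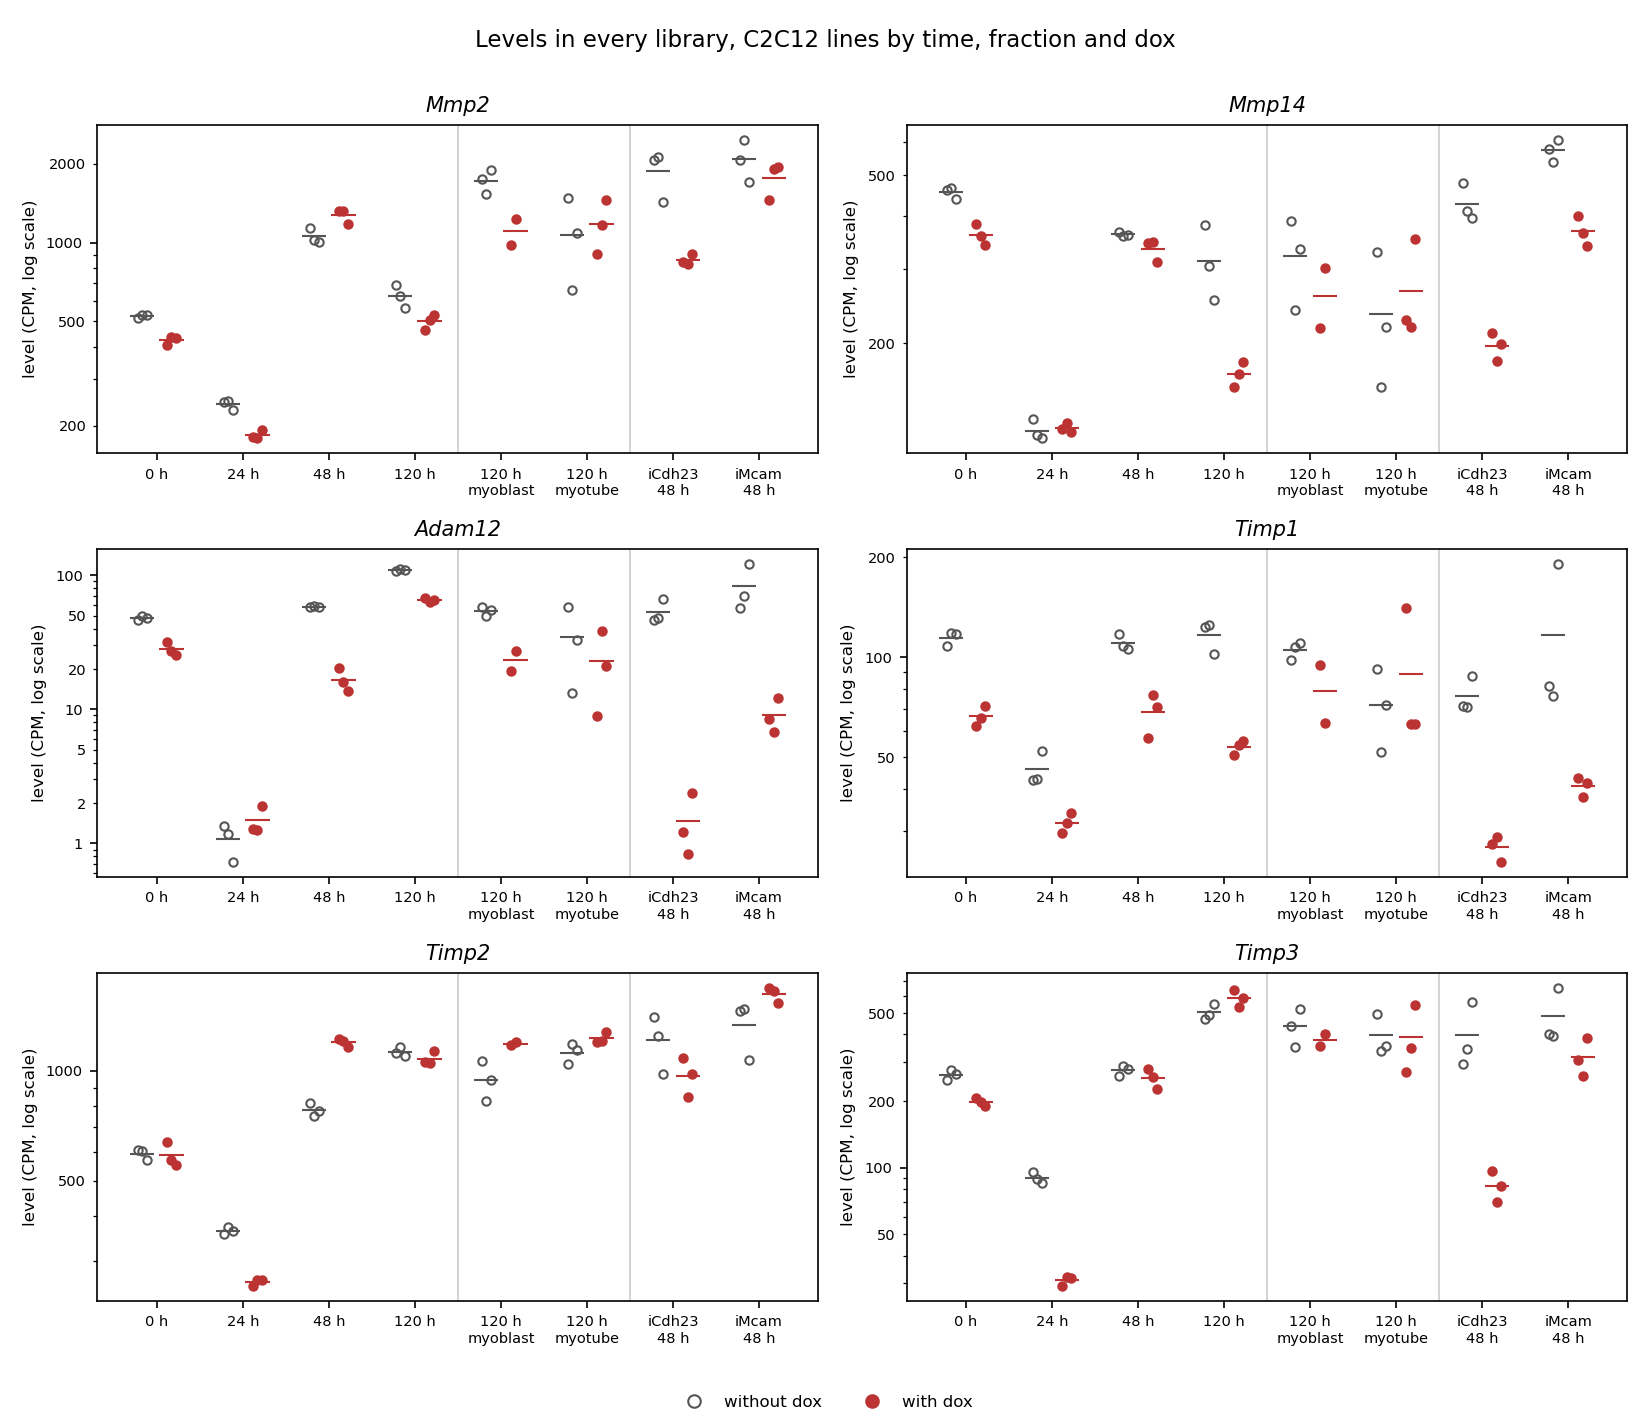
Level in CPM (log scale, scaled by TMM) of the 6 expressed genes in every library, by time, fraction or line. Open circles are libraries without dox, filled circles libraries with dox and bars the group means, all 6 genes lie lower at 24 h than at 0 h, and Adam12 with dox lies below all libraries without dox in iMyoD1 cells at 48 h, in iCdh23 and in iMcam.

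MMP2 is the secreted gelatinase that digests basement-membrane collagen. The level of Mmp2 was 516, 527 and 528 CPM at 0 h without dox and 405, 436 and 430.0 with dox. At 24 h it was 245, 248 and 230.0 CPM without dox and 181, 179 and 193 with dox. At 48 h it was 1133, 1026 and 1007 CPM without dox and 1315, 1320.0 and 1180.0 with dox. Every library with dox lay below those without at 0 h and 24 h, and above them at 48 h. At 120 h, in the whole culture, the level of Mmp2 was 688, 623 and 561 CPM without dox and 464, 506 and 529 with dox, the latter again the lower in every library, while without TMM factors the groups overlapped. None of these dox differences reached 2-fold: the log2 fold change was -0.30 (SE 0.0504, adjusted p = 0.000409) at 0 h, -0.41 (SE 0.0538, adjusted p = 3.42e-05) at 24 h, 0.25 (SE 0.0755, adjusted p = 0.0148) at 48 h and -0.33 (SE 0.0982, adjusted p = 0.0208) at 120 h. Over time Mmp2 fell from 0 h to 24 h (-1.08 log2 without dox, -1.19 with dox) and rose from 24 h to 48 h (2.14 without, 2.76 with dox). From 48 h to 120 h Mmp2 fell with dox (-1.34, SE 0.0947, adjusted p = 3.44e-08), and the log2 fold change without dox was -0.74 (SE 0.0976, adjusted p = 0.000145), under 2-fold.

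In iCdh23 cells Mmp2 fell with dox, from 2072, 2126 and 1432 CPM to 843, 828 and 906. The groups did not overlap, and the log2 fold change was -1.13 (SE 0.16, adjusted p = 0.000607), or 2.19-fold lower. In iMcam cells the level of Mmp2 was 2065, 2466 and 1703 CPM without dox and 1459, 1905 and 1944 with dox, and the groups overlapped (-0.20, SE 0.174, adjusted p = 0.373). In the fractions at 120 h it was 1756, 1530.0 and 1888 CPM without dox and 975 and 1230.0 with dox in the myoblast-enriched part, and 1475, 657 and 1086 without and 901, 1167 and 1455 with dox in the myotube-enriched part. Only the myoblast-enriched libraries separated by dox, at -0.64 (SE 0.183, adjusted p = 0.0979), which was not called. The highest group mean of Mmp2, 2078 ± 381 CPM in iMcam cells without dox, was 11.3-fold the lowest, 185 ± 7.65 CPM at 24 h with dox. Of the 15 steps between neighbouring groups in the order of Mmp2 means, 8 had overlapping libraries. Groups of the same time in different tables did not have the same level. At 48 h without dox Mmp2 was 1055 ± 67.8 CPM in iMyoD1 cells, against 1876 ± 386 in iCdh23 and 2078 ± 381 in iMcam cells. The iCdh23 and iMcam libraries share a table. Line and table cannot be told apart between iMyoD1 and these lines.

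MMP14 is the membrane-anchored collagenase that activates pro-MMP2. The level of Mmp14 was 461, 467 and 439 CPM at 0 h without dox and 383, 359 and 341 with dox, and at 24 h 132, 121 and 119 without and 125, 129 and 123 with dox. At 48 h it was 367, 359 and 360.0 CPM without dox and 346, 348 and 311 with dox. The libraries with dox lay lower at 0 h and 48 h and among those without dox at 24 h. Whole cultures at 120 h had Mmp14 at 380.0, 305 and 253 CPM without dox and 157, 169 and 180.0 with dox. These groups did not overlap, but at -0.90 (SE 0.139, adjusted p = 0.000771) the difference was 1.87-fold and not called. It was called when replicate 3 without dox was left out, at -1.04. At 48 h the groups overlapped without TMM factors. The log2 fold change with dox was -0.33 at 0 h, 0.00 at 24 h and -0.13 at 48 h.

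Over time Mmp14 fell from 0 h to 24 h (-1.85, SE 0.0596, adjusted p = 5.74e-12 without dox, -1.52 with dox) and rose from 24 h to 48 h (1.56, SE 0.0583, adjusted p = 3.19e-11 without, 1.39 with dox). From 48 h to 120 h the log2 fold change of Mmp14 was -0.20 without dox, and with dox -0.98 (SE 0.0913, adjusted p = 4.52e-07), just under 2-fold. It was called, at -1.03, when replicate 3 at 48 h with dox or replicate 3 at 120 h with dox was left out. In iCdh23 cells the level of Mmp14 was 478, 410.0 and 396 CPM without dox and 211, 181 and 199 with dox, and in iMcam cells 578, 536 and 606 without and 400.0, 364 and 339 with dox. All libraries with dox were lower in both lines. Mmp14 fell in iCdh23 cells (-1.12, SE 0.117, adjusted p = 0.000132), and in iMcam cells the difference was -0.60 (SE 0.101, adjusted p = 0.00258), or 1.52-fold, and was not called. The fractions overlapped, with 389, 240.0 and 334 CPM without and 217 and 301 with dox in the myoblast-enriched part and 329, 157 and 218 without and 227, 218 and 352 with dox in the myotube-enriched part. The group means of Mmp14 ran from 124 ± 6.78 CPM (24 h without dox) to 573 ± 34.8 CPM (iMcam without dox), a 4.63-fold range, and 12 of 15 neighbouring steps had overlapping libraries.

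MMP9 is the other gelatinase, known from leukocytes and invading cells, and Mmp9 was close to the limit of detection, with 0 counts in 11 of 47 libraries. At 0 h the libraries held 9, 14 and 19 counts without dox (0.538, 0.7 and 0.948 CPM) and 48, 28 and 25 with dox (1.92, 1.36 and 1.25 CPM). All 3 libraries with dox lay above those without, and Mmp9 rose at a log2 fold change of 1.05 (SE 0.337, adjusted p = 0.0241). This call rests on few counts: it ended in DESeq2 (adjusted p = 0.0755; 0.0233 to 0.112 over all alternatives), in a fit with every group of the table (adjusted p = 0.0523), and without replicate 1 with dox (log2 0.83), replicate 1 without dox (log2 0.89) or replicate 2 without dox (log2 1.02). At 24 h Mmp9 had 0, 1 and 3 counts without dox and 13, 6 and 7 with dox, and at 48 h 0, 0 and 1 without and 7, 10 and 4 with dox. Every library with dox was higher at both times, but Mmp9 did not pass the filter of the reported fit. With no low-count filter it was called up at 24 h (adjusted p = 0.0409) and 48 h (adjusted p = 0.0425), in the fit with every group of the tables at 24 h (adjusted p = 0.0155), and by DESeq2 at neither time (adjusted p = 0.0976 and 0.0969). The dox effect on Mmp9 at 24 h against 0 h was tested and not called (1.08, SE 0.824, adjusted p = 0.341). Mmp9 in the whole culture at 120 h had 1, 0 and 0 counts without dox and 0, 0 and 0 with dox, and from 48 h to 120 h with dox it was called down with no filter (adjusted p = 0.0115) and by DESeq2 (adjusted p = 0.0306), while the reported fit left it out.

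Mmp9 fell from 0 h to 24 h, by at least 6.58-fold without dox (adjusted p = 0.000195), where the 24 h group was at the floor, and by 6.23-fold with dox (-2.64, SE 0.379, adjusted p = 3.56e-05). In iCdh23 cells Mmp9 had 7, 1 and 1 counts without dox and 14, 13 and 12 with dox, and in iMcam cells 9, 7 and 1 without and 12, 12 and 9 with dox. The iCdh23 groups did not overlap and the iMcam groups did. The rise in iCdh23 cells was called at 1.78 (SE 0.635, adjusted p = 0.0405), but not by DESeq2 (adjusted p = 0.0927, in a range of 0.00273 to 0.14 over the alternatives) or with every group of the table (adjusted p = 0.14). It was not called without replicate 2 (log2 1.40) or 3 (1.34) without dox, nor without replicate 1 (1.62), 2 (1.87) or 3 (1.85) with dox. Without replicate 1 of the iCdh23 cells without dox, which held 7 of the Mmp9 counts of its group, the log2 fold change was 3.24. The fractions held 2, 4 and 6 Mmp9 counts without and 16 and 7 with dox (myoblast-enriched) and 0, 11 and 0 without and 2, 0 and 1 with dox (myotube-enriched).

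MMP3 (stromelysin) degrades proteoglycans and activates other metalloproteinases. Mmp3 was counted above the floor in 1 of 16 groups, the iCdh23 cells with dox, which held 43, 57 and 55 counts (1.79, 1.89 and 1.96 CPM) against 1, 0 and 0 counts without dox. The 3 libraries with dox lay close together and far above the others. Mmp3 rose in iCdh23 cells with dox, at least 13.8-fold against the floor (adjusted p = 4.84e-05), and this call was kept with each library left out in turn. In iMcam cells Mmp3 had 1, 3 and 3 counts with dox and 0, 0 and 0 without, so both groups were at the floor and the reported fit left it out. With every group of the table it was called up there (adjusted p = 0.0323), with no fold change written here because both groups were at the floor, with no low-count filter it was not called (adjusted p = 0.0841), and DESeq2 gave no adjusted p. In all libraries of iMyoD1 cells it had 0 counts. At its highest the length-scaled level of Mmp3 was 2.8, against 749 for Mmp2 in the same libraries. The difference of the dox effect on Mmp3 between iCdh23 and iMcam cells was tested and not called (adjusted p = 0.895), with all iMcam libraries without dox at 0.

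**Figure D2:**
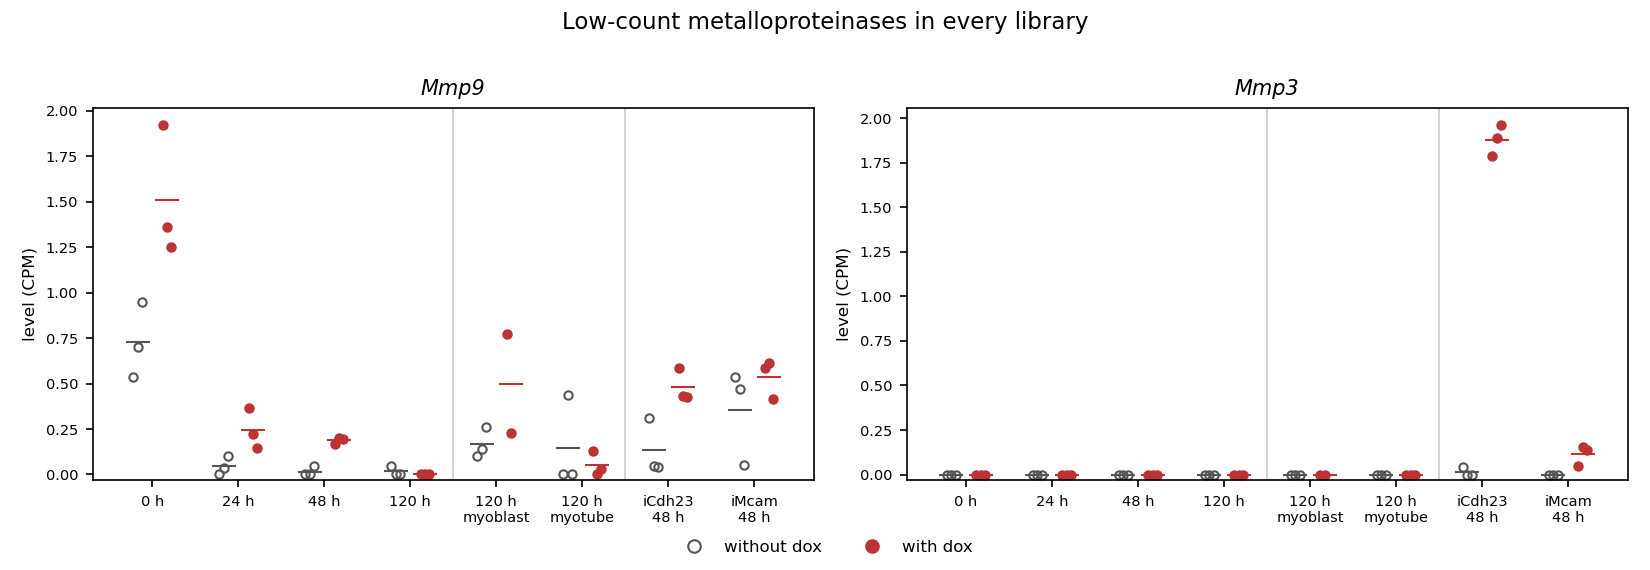
Level in CPM of Mmp9 and Mmp3 in every library, linear scale, by time, fraction or line. Open circles are libraries without dox, filled circles libraries with dox and bars the group means, and Mmp3 stands at 1.79, 1.89 and 1.96 CPM in iCdh23 cells with dox and near 0 elsewhere.

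MMP10 is a stromelysin like MMP3, and MMP13 is the collagenase of cartilage and bone. Mmp10 and Mmp13 were at the floor in all 16 groups, with at most 3 counts in any library and 0 counts in 41 and 42 of the 47 libraries. Mmp10 had 1, 1 and 1 counts in iCdh23 cells with dox. A count of 0 leaves room for 3 counts per library, so low expression of Mmp10 and Mmp13 was not detectable at this depth. Mmp3, Mmp10 and Mmp13 lie in a cluster of 10 metalloproteinase genes on chromosome 9, and from the start of Mmp13 to the end of Mmp10 the distance is 237727 bases. Of those 10 genes, Mmp3 alone had more than 3 counts in any library, and Mmp1a, Mmp1b, Mmp7, Mmp20 and Mmp27 had 0 in all 47. Mmp3 and Mmp10 are alike in sequence: 14.57% of the 31-base words in Mmp3 transcripts also occur in other genes (Mmp10, Gm15242 and Gm15244), and 11.94% of those in Mmp10 occur in Mmp3. Mmp2, Mmp9, Mmp13, Timp1 and Timp2 share 0 such words with other genes, and Mmp14 (2.26%), Timp3 (0.71%) and Adam12 (3.96%) few.

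Promoters of metalloproteinase genes were searched because the AP-1 site, bound by Fos and Jun proteins, is the best-known control element of this family. RefSeq promoter sequences (GRCm38.p6) of 250 bases before to 50 after the start of transcription were found for 7 of the 10 genes (Mmp3, Mmp10, Mmp13, Mmp14, Timp1, Timp2 and Timp3). The AP-1 letters TGACTCA or TGAGTCA, on either strand, occurred 35 bases before the start in Mmp13 (-35), 46 before it in Mmp3 (-46) and 63 before it in Mmp10 (-63). They did not occur in this window of Mmp14, Timp1, Timp2 or Timp3, and 1466 of all 32851 promoters (4.46%) held them. The TATA letters TATAAA were in the windows of Mmp13 (-16), Mmp3 (-7) and Mmp10 (-29), and in 12.4% of all promoters. The E-box letters CAGCTG, of the kind bound by MyoD1, were found in Timp2 alone among the 7, at -188, and in 13.0% of all promoters. Distances are counted from the RefSeq start, and the TATA letters also lay at different distances from it. The distances of the AP-1 letters are therefore not compared between these 3 genes, and a link to their levels was not tested. The 3 windows below show the AP-1 letters in capitals. They are read from the plus strand of GRCm38 at chr9:7272459-7272505 (Mmp13), chr9:7445756-7445802 (Mmp3) and chr9:7502259-7502305 (Mmp10).
Mmp13: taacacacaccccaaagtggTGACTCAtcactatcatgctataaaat
Mmp3: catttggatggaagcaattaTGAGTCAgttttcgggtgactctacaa
Mmp10: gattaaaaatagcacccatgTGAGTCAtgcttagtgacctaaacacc

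TIMP1 is the secreted inhibitor of most soluble metalloproteinases. The level of Timp1 was 108, 118 and 117 CPM at 0 h without dox and 62.1, 65.7 and 71.5 with dox, and at 24 h 42.8, 42.9 and 52.1 without and 29.6, 31.7 and 33.9 with dox. At 48 h it was 117, 108 and 106 CPM without dox and 57.1, 76.9 and 70.6 with dox. In the whole culture at 120 h it was 123, 125 and 102 CPM without dox and 50.6, 54.5 and 55.8 with dox. All libraries with dox lay below all libraries without dox at each of these 4 times. Timp1 fell with dox at 120 h (-1.13, SE 0.105, adjusted p = 3.76e-05, 2.19-fold lower), while without TMM factors its means, 103 CPM without and 54.0 with dox, were under 2-fold apart. The differences at 0 h (-0.77, SE 0.0655, adjusted p = 8.69e-07), 24 h (-0.56, SE 0.0829, adjusted p = 9.03e-05) and 48 h (-0.71, SE 0.0975, adjusted p = 0.000115) were under 2-fold and not called. Over time Timp1 fell from 0 h to 24 h (-1.28 log2 without dox, -1.06 with dox) and rose from 24 h to 48 h (1.27 and 1.08). With dox the former call ended without replicate 3 at 0 h or replicate 1 at 24 h (log2 -1.0 in both), and the latter without replicate 2 at 48 h (log2 0.99). Without TMM factors the means of the latter, 36.0 CPM at 24 h and 67.7 at 48 h, were under 2-fold apart.

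In iCdh23 cells the level of Timp1 was 71.1, 70.6 and 87.5 CPM without dox and 27.5, 28.8 and 24.2 with dox, and in iMcam cells 81.8, 76.6 and 191 without and 43.3, 37.9 and 41.7 with dox. The groups did not overlap in either line, and replicate 3 of the iMcam cells without dox stood far above its group. Timp1 fell in iCdh23 cells (-1.51, SE 0.117, adjusted p = 3.33e-05, 2.85-fold lower) and in iMcam cells (-1.46, SE 0.331, adjusted p = 0.0087). Without replicate 3 of the iMcam cells without dox the log2 fold change there was -0.92 (adjusted p = 0.000299, in a range of 8.16e-06 to 0.0371 over the alternatives), under 2-fold and not called. The same library had the highest summed myotube genes of its group (3298, 5015 and 8437 CPM), and their part in the result was not tested. In the fractions Timp1 stood at 97.9, 107 and 110.0 CPM without and 94.7 and 63.4 with dox (myoblast-enriched), and at 92.2, 51.7 and 71.6 without and 141, 63.1 and 62.8 with dox (myotube-enriched). The libraries with dox were lower in the former fraction, though not without TMM factors, and overlapped in the latter, and neither difference was called. The group means of Timp1 ran from 26.8 ± 2.38 CPM (iCdh23 with dox) to 116 ± 13.0 CPM (120 h without dox), 4.34-fold, and 12 of 15 neighbouring steps had overlapping libraries. Timp1 lies within Syn1 on the opposite strand.

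TIMP2 inhibits metalloproteinases and also bridges pro-MMP2 to MMP14. The level of Timp2 was 605, 603 and 571 CPM at 0 h without dox and 638, 570.0 and 550.0 with dox. At 24 h it was 357, 372 and 364 CPM without dox and 257, 266 and 266 with dox, and at 48 h 818, 752 and 776 without and 1227, 1208 and 1163 with dox. The libraries with dox overlapped those without at 0 h, were all lower at 24 h and were all higher at 48 h. The log2 fold change with dox was -0.01 at 0 h, -0.49 (SE 0.0528, adjusted p = 5.89e-06) at 24 h and 0.60 (SE 0.0669, adjusted p = 2.58e-05) at 48 h, each under 2-fold. By 120 h in the whole culture Timp2 was 1123, 1164 and 1102 CPM without dox and 1058, 1052 and 1134 with dox, and the groups overlapped. With dox Timp2 was not called by edgeR in any of the 8 settings. In iCdh23 cells it was 1408, 1247 and 983 CPM without and 1083, 849 and 981 with dox (-0.32, SE 0.161, adjusted p = 0.116), with overlap. In iMcam cells it was 1465, 1480.0 and 1070.0 CPM without and 1694, 1656 and 1540.0 with dox (0.32, SE 0.148, adjusted p = 0.109), all libraries with dox the higher.

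Over time Timp2 fell from 0 h to 24 h with dox (-1.15, SE 0.0625, adjusted p = 2.58e-09), while without dox the difference was -0.67 (SE 0.0558, adjusted p = 9.75e-08) and under 2-fold. From 24 h to 48 h it rose without dox (1.10 log2) and with dox (2.16), and from 48 h to 120 h the log2 fold change was 0.55 without and -0.14 with dox, neither called. In the fractions Timp2 was 1064, 827 and 944 CPM without and 1175 and 1200.0 with dox (myoblast-enriched), and 1042, 1187 and 1138 without and 1197, 1210.0 and 1282 with dox (myotube-enriched), higher with dox in every library of both fractions but not called, and overlapping in the myotube-enriched part without TMM factors. The group means of Timp2 ran from 263 ± 5.15 CPM (24 h with dox) to 1630.0 ± 80.1 CPM (iMcam with dox), 6.19-fold, with 9 of 15 neighbouring steps overlapping.

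TIMP3 is the inhibitor that stays bound to the matrix and also inhibits ADAM proteases. The level of Timp3 was 249, 277 and 264 CPM at 0 h without dox and 207, 199 and 190.0 with dox. At 24 h it was 95.7, 88.5 and 85.3 CPM without dox and 29.2, 32.0 and 31.7 with dox. All libraries with dox were lower at both times, and Timp3 fell with dox at 24 h by 2.95-fold (-1.56, SE 0.0629, adjusted p = 2.1e-09), while at 0 h the difference was -0.40 (SE 0.0562, adjusted p = 9.42e-05), or 1.32-fold. At 48 h Timp3 was 260.0, 287 and 279 CPM without dox and 278, 256 and 227 with dox, and in the whole culture at 120 h 472, 492 and 548 without and 637, 531 and 585 with dox. The groups overlapped at both of these times (-0.13 and 0.20 log2). The dox effect on Timp3 was smaller, that is more negative, at 24 h than at 0 h by a test of the difference (-1.21, SE 0.0858, adjusted p = 1.9e-08). Between 120 h and 48 h that difference was 0.34 (SE 0.135, adjusted p = 0.0691) and not called.

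Timp3 fell from 0 h to 24 h (-1.52, SE 0.0631, adjusted p = 6.41e-11 without dox, -2.68 (SE 0.0612, adjusted p = 9.72e-13) with dox) and rose from 24 h to 48 h (1.62 and 3.01 log2). From 48 h to 120 h it rose with dox (1.21, SE 0.105, adjusted p = 2.18e-07), and without dox the difference was 0.89 (SE 0.0919, adjusted p = 3.29e-05), or 1.85-fold. In iCdh23 cells the level of Timp3 was 295, 344 and 559 CPM without dox and 96.1, 70.0 and 82.2 with dox. All libraries with dox were far lower, and Timp3 fell by 4.83-fold (-2.27, SE 0.257, adjusted p = 0.000198). In iMcam cells it was 404, 392 and 652 CPM without and 308, 260.0 and 384 with dox, also without overlap, at -0.57 (SE 0.221, adjusted p = 0.0667), and with overlap when TMM factors were left out. The dox effect on Timp3 was more negative in iCdh23 than in iMcam cells (-1.68, SE 0.372, adjusted p = 0.0149), and leaving out any of the 12 libraries kept this call. The fractions overlapped, at 438, 352 and 523 CPM without and 353 and 402 with dox (myoblast-enriched) and 497, 338 and 353 without and 271, 349 and 546 with dox (myotube-enriched).

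The group means of Timp3 were lowest at 24 h with dox and highest in the whole culture at 120 h with dox (585 ± 53.1 CPM), 18.9-fold apart, and 12 of 15 neighbouring steps had overlapping libraries. Timp3 lies within Syn3 and its exons overlap those of Syn3 on the opposite strand. The mean level of Syn3 was 21.8 CPM without and 19.9 with dox at 0 h, 11.4 and 3.42 at 24 h, and 43.2 and 48.7 at 48 h. It was 27.7 CPM without and 5.64 with dox in iCdh23 cells, and 42.3 and 21.1 in iMcam cells. Syn3 in the whole culture at 120 h was 0.0799 CPM without and 0.0586 with dox while Timp3 was at 504 and 585 CPM. In the fractions at 120 h Syn3 was 66.1 CPM without and 71.3 with dox (myoblast-enriched), and 38.7 and 60.5 (myotube-enriched). The sources used do not give whether reads were assigned by strand. A part of shared reads in the levels of Timp3 was not tested.

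ADAM12 is the membrane-anchored disintegrin and metalloproteinase. Adam12 had the widest range of the 6 expressed genes, from 1.08 ± 0.317 CPM at 24 h to 110.0 ± 1.97 CPM at 120 h in the whole culture, both without dox, or 102-fold. The level was 46.3, 49.4 and 48.4 CPM at 0 h without dox and 31.9, 27.1 and 25.6 with dox. At 24 h it was 1.34, 1.17 and 0.727 CPM without dox and 1.29, 1.26 and 1.91 with dox. At 48 h it was 58.2, 59.4 and 57.8 CPM without dox and 20.2, 16 and 13.8 with dox. In the whole culture at 120 h it was 107, 111 and 110.0 CPM without dox and 68.3, 63.3 and 66.0 with dox. Libraries with dox lay below all libraries without dox at 0 h, 48 h and 120 h, and the groups overlapped at 24 h, where every library was under 2 CPM. Adam12 fell with dox at 48 h by 3.53-fold (-1.82, SE 0.118, adjusted p = 4.88e-07). At 0 h (-0.76, SE 0.0806, adjusted p = 7.48e-06) and 120 h (-0.75, SE 0.0813, adjusted p = 0.000101) the differences were under 2-fold and not called, and at 24 h the log2 fold change was 0.46 (SE 0.284, adjusted p = 0.179).

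Over time Adam12 fell from 0 h to 24 h by 43.7-fold without dox (-5.45, SE 0.134, adjusted p = 5.42e-13) and by 18.4-fold with dox (-4.20). From 24 h to 48 h it rose 54.8-fold without dox (5.77, SE 0.126, adjusted p = 1.23e-13) and 10.8-fold with dox (3.43). From 48 h to 120 h it rose 3.96-fold with dox (1.98, SE 0.131, adjusted p = 1.87e-08), and without dox the difference was 1.9-fold (0.92, SE 0.0775, adjusted p = 9.61e-06) and not called. The dox effect on Adam12 was larger, that is less negative or more positive, at 24 h than at 0 h (1.20, SE 0.245, adjusted p = 0.00103) and at 120 h than at 48 h (1.08, SE 0.152, adjusted p = 0.000114). The former call ended without replicate 3 at 24 h with dox (log2 0.95) or replicate 3 at 24 h without dox (0.98), and the latter without replicate 3 at 48 h with dox (0.95).

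In iCdh23 cells the level of Adam12 was 46.1, 47.9 and 67.1 CPM without dox and 1.21, 0.827 and 2.39 with dox. In iMcam cells it was 56.7, 69.6 and 122 CPM without dox and 8.52, 6.83 and 12.1 with dox. The groups were far apart in both lines. Adam12 fell by 36.3-fold in iCdh23 cells (-5.18, SE 0.361, adjusted p = 2.12e-05) and by 8.78-fold in iMcam cells (-3.13, SE 0.33, adjusted p = 0.00045). The dox effect was more negative in iCdh23 than in iMcam cells at -2.02 (SE 0.524, adjusted p = 0.0299). That call ended in 6 of the 12 fits that left out 1 library, with adjusted p from 0.000252 to 0.0862 over all alternatives: without replicate 1 (log2 -1.92) or 2 (-1.71) of iCdh23 with dox, replicate 1 (-1.81) or 2 (-1.92) of iMcam without dox, and replicate 1 (-2.07) or 3 (-1.78) of iMcam with dox. In the myoblast-enriched fraction Adam12 was 58.5, 49.8 and 55.2 CPM without and 19.4 and 27.4 with dox, and in the myotube-enriched fraction 58.2, 13.3 and 33.1 without and 8.89, 38.7 and 20.9 with dox. The former groups were apart and the latter overlapped. Adam12 fell in the myoblast-enriched fraction (-1.21, SE 0.183, adjusted p = 0.0212, 2.31-fold), a call that ended in a fit with all groups of the table (adjusted p = 0.363, the highest over the alternatives, the lowest being 7.47e-07) and without replicate 3 without dox (log2 -1.20), replicate 2 with dox (-0.99) or replicate 3 with dox (-1.47), of which the fits without a replicate with dox hold 1 library in that group. Of the 15 neighbouring steps in the order of Adam12 means, 12 had overlapping libraries.

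**Figure D3:**
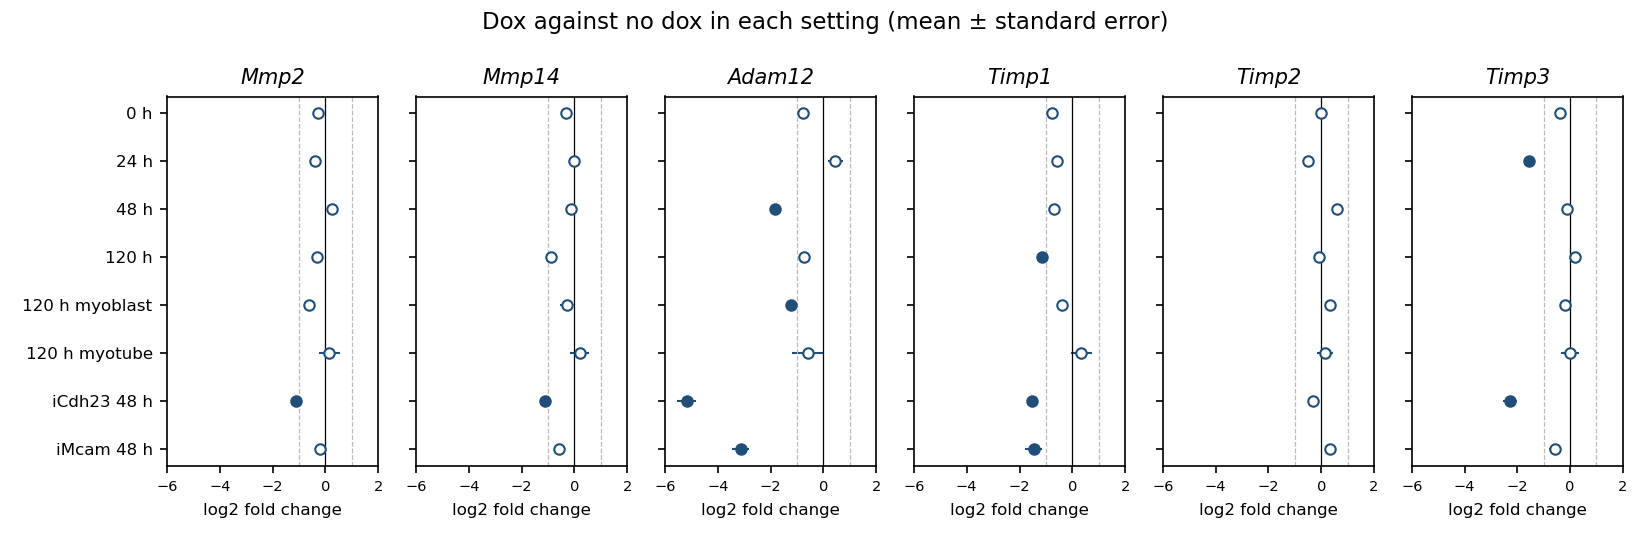
Log2 fold change of dox against no dox (point) with its standard error (bar) for the 6 expressed genes in 8 settings. Filled points were called and dashed lines mark 2-fold, and Adam12 has the most negative values, in iCdh23 and iMcam cells, while Timp2 has no filled point.

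In growth medium, 7 of the 10 genes passed the filter on low counts, and dox raised Mmp9 and lowered none past 2-fold. That is 1 up and 0 down, beside 2.91% and 1.36% of all genes tested by edgeR. DESeq2 called 0 of the members, and 6 of the 7 had an unadjusted p under 0.05, as did 46.7% of all genes tested. Proliferation genes summed to 2036, 2030.0 and 2017 CPM without and 1816, 1826 and 1769 with dox, fibroblast genes to 24.4, 27.7 and 25.0 without and 22.4, 17.4 and 20.0 with dox, and myotube genes to 1.02, 2.1 and 2.0 without and 4.25, 4.21 and 4.74 with dox. Myoblast genes, which include Myod1, summed to 611, 590.0 and 599 CPM without and 754, 727 and 733 with dox. None of these sums overlapped, and their part in the rise of Mmp9 was not tested. Among related genes tested, the membrane-type metalloproteinase Mmp15 rose (1.60 log2), the protease inhibitor Serpine2 fell (-1.38) and the AP-1 subunit Fosl1 fell (-1.25). The median log2 fold change was 0.12 over 7 other metalloproteinases, 0.09 over 8 ADAM genes, 0.03 over 9 ADAMTS genes, 0.08 over 11 inhibitors and activators, -0.19 over 9 AP-1 and Ets factors and -0.33 over the members, beside 0 over all genes. No ADAM or ADAMTS gene was called at 0 h by edgeR, with 6 and 6 at an unadjusted p under 0.05.

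At 24 h of serum withdrawal, dox lowered Timp3 alone among the 6 members tested. The count was 0 up and 1 down, beside 8.02% up and 5.13% down of all genes tested, and 4 of the 6 had an unadjusted p under 0.05, as did 66.4% of all genes. Proliferation genes summed to 572, 522 and 525 CPM without and 571, 569 and 555 with dox and overlapped, and fibroblast genes to 3.7, 3.55 and 3.81 without and 5.48, 4.14 and 5.51 with dox, higher in every library. Myoblast genes summed to 360.0, 365 and 379 CPM without and 425, 422 and 423 with dox, also higher. Their part in the fall of Timp3 was not tested. Other genes of matrix turnover were called in both directions. Adamts1 (-2.22 log2) and Adamts5 (-2.19) fell, while Adamts4 (1.18) and Adamts10 (1.35) rose. Reck, a membrane-anchored inhibitor of metalloproteinases, rose (1.58), and the urokinase receptor Plaur (-1.83), the proprotein convertase Pcsk6 (-1.77) and Serpine2 (-1.17) fell. Mmp15 (1.08), Mmp23 (1.04) and Adam15 (1.08) rose. Of the 9 AP-1 and Ets factors, Fosb rose (1.42) and Fosl1 (-2.21), Fosl2 (-1.59) and Ets2 (-1.91) fell. List medians were -0.12 (metalloproteinases), 0 (ADAM), -0.19 (ADAMTS), 0.29 (inhibitors and activators), -0.57 (AP-1 and Ets) and -0.45 (members) on the log2 scale, beside 0 over all genes.

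At 48 h dox lowered Adam12 among 6 members tested, 0 up and 1 down, beside 5.93% and 8.46% of all genes, with 4 of 6, and 61.3% of all genes, at an unadjusted p under 0.05. The summed myotube genes were 12188, 11571 and 10867 CPM without and 4608, 4645 and 4338 with dox, and the summed proliferation genes 875, 858 and 859 without and 268, 261 and 247 with dox. Fibroblast genes summed to 38.1, 34.5 and 36.2 CPM without and 48.7, 54.2 and 52.7 with dox, and myoblast genes to 2455, 2247 and 2316 without and 1688, 1774 and 1823 with dox. None of these sums overlapped, and their part in the fall of Adam12 was not tested. Of 11 ADAMTS genes tested, 4 fell (Adamts16 -2.34, Adamts17 -1.55, Adamts6 -1.13 and Adamts12 -1.08 log2). Reck (1.40), Adam15 (1.45) and Mmp19 (1.14) rose, and Mmp15 (-1.12), Fosl1 (-1.56) and Junb (-1.03) fell. Of 11 inhibitors and activators 1 rose and 1 fell. The median log2 fold changes were 0.38 over 6 metalloproteinases, -0.28 over 7 ADAM genes, -0.39 over the ADAMTS genes, -0.60 over 11 inhibitors and activators, -0.16 over 9 AP-1 and Ets factors and -0.13 over the members, beside 0.01 over all genes.

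In the whole culture at 120 h dox lowered Timp1, 0 up and 1 down of 6, beside 7.32% and 8.80% of all genes, and 4 of 6 had an unadjusted p under 0.05, as did 52.5% of all genes. The means of Timp1 were under 2-fold apart without TMM factors, a scaling for which no test was made. The summed myotube genes were 15200.0, 12652 and 13054 CPM without and 9651, 11301 and 10725 with dox and the proliferation genes 183, 215 and 203 without and 427, 372 and 358 with dox, neither overlapping. Fibroblast genes summed to 31.3, 34.2 and 40.7 CPM without and 34.7, 37.3 and 36.0 with dox and overlapped. Myoblast genes summed to 2334, 1790.0 and 1254 CPM without and 943, 1252 and 1220.0 with dox, and the part of these genes in the fall of Timp1 was not tested. Among other metalloproteinases, Mmp28 (-2.52 log2), Mmp11 (-1.73) and Mmp15 (-1.22) fell, 3 of 6 tested. Adamts9 rose (3.00), and Adamts14 (-1.44), Adamts5, Adam19 (-1.21) and Plaur (-1.32) fell. The factors Junb (-2.70), Fosl2 (-1.17) and Ets2 (-1.14) fell. The medians on the log2 scale were -0.74 (metalloproteinases), 0.18 (ADAM), -0.62 (ADAMTS), -0.51 (inhibitors and activators), -0.84 (AP-1 and Ets) and -0.54 (members), beside 0 over all genes.

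Among the 8 comparisons of dox with vehicle, the iCdh23 cells had the most calls of members: Mmp3 and Mmp9 rose, and Mmp2, Mmp14, Timp1, Timp3 and Adam12 fell, while Timp2 was not called. This is 2 up and 5 down of 8 tested, beside 13.0% up and 17.0% down of all genes. The 2 that rose passed the filter on low counts only through their libraries with dox. Mmp3 had 1, 0 and 0 counts without and 43, 57 and 55 with dox, and Mmp9 7, 1 and 1 without and 14, 13 and 12 with dox. The filter thus favoured a rise for these 2, and their count is not to be read against the share of all genes. The TMM factors over the 47 libraries lowered the log2 fold change with dox in iCdh23 cells by 0.33. Without them the mean of Mmp2 was 1826 CPM without and 1048 with dox and that of Mmp14 416 and 241, both under 2-fold apart, and no test was made without TMM or RLE scaling. Both a gelatinase with its activator and a pair of inhibitors were thus lower, and the transcripts that were higher stayed below 2 CPM. In these cells Mcam was at 7.57, 6.51 and 4.77 CPM without and 54.6, 47.1 and 45.7 with dox, and Myod1 at 199, 220.0 and 333 without and 44.2, 28.8 and 51.5 with dox. The summed myotube genes went from 4448, 6109 and 7687 to 33.2, 37.9 and 110.0 CPM and the proliferation genes from 550.0, 638 and 851 to 22.2, 11.3 and 24.2 CPM. The 4 myoblast genes summed to 1600.0, 1709 and 1827 CPM without and 332, 294 and 350.0 with dox, and the 3 fibroblast genes to 51.6, 67.3 and 50.7 without and 10.7, 9.3 and 10.5 with dox, where Thy1 was at 0. None of these 4 sums overlapped between the groups, and their part in the changes of the members was not tested. Replicate numbers shared part of their variation here (residual correlation from 0.107 to 0.257 in every pair), and with the replicate as a block the count of members called was 7 as well.

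Related genes in iCdh23 cells with dox were called in both directions. Of 14 ADAMTS genes tested, 8 fell and 0 rose, among them Adamts16 (-4.60 log2), Adamts5 (-4.16), Adamts7 (-2.28) and Adamts12 (-2.27), with 11 at an unadjusted p under 0.05, beside 67.6% of all genes. Of 11 inhibitors and activators, 1 rose (Reck, 2.32) and 7 fell, among them the urokinase Plau (-2.96), Pcsk6 (-2.66) and the hyaluronan receptor Cd44 (-1.63). Of 8 ADAM genes, Adam15 (2.14) and Adam22 (1.50) rose and Adam19 (-3.76) and Adam23 (-1.82) fell. Of 7 other metalloproteinases, Mmp17 rose (3.65) and Mmp15 (-1.42) and Mmp16 (-1.28) fell. Of 9 AP-1 and Ets factors, Fos rose (1.34) and Jun (-2.38) and Fosl1 (-2.35) fell. Medians on the log2 scale were -1.21 (ADAMTS), -1.20 (inhibitors and activators), -0.12 (ADAM), -0.48 (metalloproteinases), -0.47 (AP-1 and Ets) and -1.12 (members), beside 0 over all genes.

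In iMcam cells dox lowered Timp1 and Adam12, 0 up and 2 down of 6 tested, beside 6.99% and 9.85% of all genes, with 4 of 6, and 56.0% of all genes, at an unadjusted p under 0.05. Cdh23 in these cells was at 5.61, 8.86 and 8.71 CPM without and 44.0, 57.2 and 52.4 with dox, and Myod1 at 191, 218 and 260.0 without and 65.1, 55.9 and 90.1 with dox. The summed myotube genes were 3298, 5015 and 8437 CPM without and 445, 498 and 1464 with dox and the proliferation genes 535, 530.0 and 666 without and 88.5, 47.1 and 98.7 with dox. Myoblast genes summed to 1245, 1428 and 1937 CPM without and 436, 434 and 692 with dox and fibroblast genes to 69.8, 79.1 and 56.2 without and 54.4, 57.0 and 85.8 with dox, the last overlapping, and their part in the changes was not tested. Of 14 ADAMTS genes, 4 fell (Adamts16 -3.09, Adamts12 -1.38, Adamts7 -1.35 and Adamts5 -1.02 log2). Of 11 inhibitors and activators, 1 rose (Reck, 1.84) and 4 fell, among them Plau (-1.75), Plaur (-1.13) and Cd44 (-1.03). Adam15 rose (1.73) and Adam19 fell (-1.07). Fosl1 (-1.93), Jun (-1.16) and Junb (-1.14) fell, and 0 of 7 other metalloproteinases were called by edgeR, with 3 at an unadjusted p under 0.05. Medians were -0.32 (ADAMTS), -0.45 (inhibitors and activators), 0.11 (ADAM), 0.29 (metalloproteinases), -0.11 (AP-1 and Ets) and -0.58 (members) log2, beside 0.02 over all genes. With the replicate as a block, where residuals of paired replicates correlated at 0.336 to 0.504, the count of members called was again 2.

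Set against each other, the dox effects in iCdh23 and iMcam cells differed for Timp3 and Adam12, 0 larger and 2 smaller of 8 members tested, beside 1.02% larger and 5.47% smaller of all genes. For Mmp2 the difference was -0.91 (SE 0.247, adjusted p = 0.0362), under 2-fold in the fit with all 12 libraries, and it was called in 3 of the 12 fits that left out 1 library: without replicate 3 of iCdh23 without dox (log2 -1.07), replicate 2 of iMcam without dox (-1.06) and replicate 1 of iMcam with dox (-1.03). For Mmp14 it was -0.50 (SE 0.153, adjusted p = 0.0598), for Timp2 -0.62 (SE 0.226, adjusted p = 0.106) and for Timp1 -0.02 (SE 0.393, adjusted p = 0.983), none of them called. Among related genes Mmp17 (3.02) and Fos (1.48) had larger and Adamts5 (-3.12), Adam19 (-2.67), Pcsk6 (-2.28) and Adamts15 (-2.05) smaller dox effects in iCdh23 cells on the log2 scale. The median difference was -0.56 over the members, -0.56 over metalloproteinases, -0.10 over ADAM genes, -0.99 over ADAMTS genes, -0.49 over inhibitors and activators and -0.07 over AP-1 and Ets factors, beside -0.02 over all genes.

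Between the time points of iMyoD1 cells the same tests of the dox effect gave 1 larger (Adam12) and 1 smaller (Timp3) of 7 members at 24 h against 0 h, beside 2.82% larger and 2.64% smaller of all genes. At 120 h in the whole culture against 48 h they gave 1 larger (Adam12) and 0 smaller of 6, beside 7.18% and 5.88%, with 6 and 43.7% of all genes at an unadjusted p under 0.05. There the difference was -0.77 for Mmp14, -0.68 for Timp2, -0.59 for Mmp2 and -0.42 for Timp1 on the log2 scale, none past 2-fold. For related genes the dox effect at 24 h was smaller than at 0 h for Pcsk6 (-1.91), Adamts16 (-1.78), Ets2 (-1.77) and Adamts5 (-1.61), among others, and larger for Plat (1.07) and Fosb (1.01), and at 120 h it was larger than at 48 h for Adamts16 (1.82), Adam8 (1.38) and Adamts12 (1.02) and smaller, among others, for Mmp28 (-2.75) and Mmp11 (-2.26). List medians for 24 h against 0 h were -0.22 (metalloproteinases), -0.04 (ADAM), -0.80 (ADAMTS), 0.17 (inhibitors and activators), -0.50 (AP-1 and Ets) and 0.17 (members), beside -0.05 over all genes. For 120 h against 48 h they were -0.94, -0.03, -0.12, -0.06, -0.73 and -0.50 in the same order, beside -0.01.

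Along the course of serum withdrawal more members were called per step, up to 48 h, than between dox and vehicle in iMyoD1 cells. From 0 h to 24 h without dox 6 of 7 members fell (Mmp2, Mmp9, Mmp14, Timp1, Timp3 and Adam12) and 0 rose, beside 16.6% down and 9.49% up of all genes. With dox all 7 tested fell, beside 11.6% down and 5.19% up. Without and with dox, Mmp9 passed the filter on low counts only through its 0 h libraries, so the filter favoured a fall for it. Over this step the proliferation genes went from 2036, 2030.0 and 2017 to 572, 522 and 525 CPM without dox and from 1816, 1826 and 1769 to 571, 569 and 555 with dox in sum. The fibroblast genes went from 24.4, 27.7 and 25.0 to 3.7, 3.55 and 3.81 CPM without dox and from 22.4, 17.4 and 20.0 to 5.48, 4.14 and 5.51 with dox, with Thy1 at 0 in the groups without dox and at 24 h with dox. The myoblast genes went from 611, 590.0 and 599 to 360.0, 365 and 379 CPM without dox and from 754, 727 and 733 to 425, 422 and 423 with dox. Their part in the falls of the members was not tested. The plasminogen activators Plat (-3.67 without and -2.56 log2 with dox) and Plau (-1.95 and -1.85) fell in both, and Mmp19 rose (1.81 and 1.27). Of other inhibitors and activators, Spock2 (-2.27 and -1.81) and Cd44 (-1.19 and -1.28) fell in both, Reck fell (-1.23) and Pcsk6 rose (2.75) without dox, and Plaur fell (-1.19) and Serpine2 rose (1.18) with dox. Calls of the inhibitors and activators are not counted here. Of the other lists without dox, 1 up and 2 down of 7 metalloproteinases, 0 and 2 of 8 ADAM genes, 0 and 4 of 9 ADAMTS genes and 1 and 1 of 9 AP-1 and Ets factors were called. The medians were -0.56 (metalloproteinases), -0.47 (ADAM), -0.81 (ADAMTS), -1.19 (inhibitors and activators) and -0.34 (AP-1 and Ets) log2, and that of the members -1.52, beside 0.01 over all genes. With dox they were -0.53, -0.41, -1.32, -1.19 and -0.61 in the same order, and that of the members -1.52, beside 0.01.

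From 24 h to 48 h all 6 members tested rose, without dox beside 19.3% up and 11.1% down of all genes, and with dox beside 17.0% up and 11.8% down. The groups of this step differ in batch as well as in time. Myotube, proliferation and fibroblast genes stood higher at 48 h than at 24 h without dox, at mean sums of 11542, 864 and 36.3 CPM against 7.27, 539 and 3.68. With dox the myotube genes went from 7.84, 8.32 and 7.91 to 4608, 4645 and 4338 CPM in sum, the fibroblast genes from 5.48, 4.14 and 5.51 to 48.7, 54.2 and 52.7 CPM, and the proliferation genes from 571, 569 and 555 to 268, 261 and 247 CPM, lower at 48 h. The myoblast genes went from 360.0, 365 and 379 to 2455, 2247 and 2316 CPM without dox and from 425, 422 and 423 to 1688, 1774 and 1823 with dox, without overlap. The part of these genes in the rises was not tested. Of 11 ADAMTS genes 8 rose without dox and 0 fell, among them Adamts17 (4.36), Adamts16 (4.22) and Adamts7 (4.19 log2), and with dox 8 of 10, among them Adamts16 (3.95) and Adamts5 (3.44). Mmp15 (4.22 and 1.98), Adam19 (2.66 and 2.87), Plau (2.55 and 1.52) and Fos (3.70 and 3.02) rose without and with dox. Of 11 inhibitors and activators 7 rose and 1 fell without dox, and 6 rose and 1 fell with dox. Plaur fell in both (-2.66 and -1.59), Mmp16 (-1.49), Mmp28 (-1.04) and Fosl1 (-1.05) fell without dox and Mmp17 (-3.11) with dox. The medians without dox were 2.47 (ADAMTS), 1.80 (inhibitors and activators), 0.30 (ADAM), -0.92 (metalloproteinases), -0.13 (AP-1 and Ets) and 1.59 (members), beside -0.02 over all genes. With dox they were 2.51, 1.32, 0.13, 0.29, 0.59 and 2.46 in the same order, beside 0.01.

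From 48 h to 120 h in the whole culture 0 of 6 members were called up and 0 down without dox by edgeR or by DESeq2, beside 11.7% up and 18.1% down of all genes. Of the 6, 4 had an unadjusted p under 0.05 (Mmp2, Timp2, Timp3 and Adam12), all under 2-fold, beside 69.8% of all genes. With dox Timp3 and Adam12 rose and Mmp2 fell, 2 up and 1 down of 6, beside 15.1% and 21.3%. Over this step the summed myotube genes went from 4608, 4645 and 4338 to 9651, 11301 and 10725 CPM with dox, the proliferation genes from 268, 261 and 247 to 427, 372 and 358 and the fibroblast genes from 48.7, 54.2 and 52.7 to 34.7, 37.3 and 36.0, none overlapping. Without dox the sums went from 12188, 11571 and 10867 to 15200.0, 12652 and 13054 CPM (myotube), 875, 858 and 859 to 183, 215 and 203 (proliferation) and 38.1, 34.5 and 36.2 to 31.3, 34.2 and 40.7 (fibroblast), the last overlapping. The myoblast genes went from 1688, 1774 and 1823 to 943, 1252 and 1220.0 CPM with dox and from 2455, 2247 and 2316 to 2334, 1790.0 and 1254 without dox, the latter overlapping, and the part of these genes in the results was not tested. Of ADAMTS genes, 3 rose and 1 fell of 11 without dox, and 4 rose and 3 fell of 12 with dox. Adamts12 (2.32 without and 3.33 log2 with dox), Adamts6 (1.47 and 1.85) and Adamts16 (1.19 and 2.99) rose in both and Adamts10 (-1.06 and -1.18) fell in both, and with dox Adamts9 rose (2.09) and Adamts4 (-1.38) and Adamts14 (-1.16) fell. Junb (-3.75 and -5.43), Jund (-3.96 and -4.83), Jun (-1.56 and -2.29) and Fosl1 (-2.88 and -2.17) fell in both, and Fosl2 rose without dox (1.07). The medians without dox were 0.63 (ADAMTS), -0.68 (inhibitors and activators), 0.40 (ADAM), 0.45 (metalloproteinases), -0.86 (AP-1 and Ets) and 0.32 (members), beside -0.03. With dox they were 0.11, -0.53, 0.53, -0.71, -0.54 and -0.24, beside -0.04 over all genes.

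In the fractions at 120 h the number of genes called depended on the fit and on single libraries. Dox lowered Adam12 in the myoblast-enriched fraction, 0 up and 1 down of 6 members, beside 1.21% and 1.82% of all genes. In this comparison 432 genes were called with all 5 libraries, 724 by DESeq2, 1108 with the replicate as a block and 956 with no low-count filter. The fit with all groups of the tables called 1. With a library without dox left out, 518 (replicate 1), 496 (replicate 2) and 0 (replicate 3) were called. In this fraction fibroblast genes summed to 165, 318 and 157 CPM without and 156 and 111 with dox, myotube genes to 4956, 7188 and 6843 without and 4275 and 4517 with dox, and proliferation genes to 885, 315 and 633 without and 228 and 524 with dox. Myoblast genes summed to 1533, 1884 and 1499 CPM without and 1671 and 1595 with dox. The myotube and fibroblast sums did not overlap, and the part of these genes in the fall of Adam12 was not tested. Leaving out replicate 2 or 3 with dox leaves 1 library in that group, so the spread then comes from the group without dox alone. The genes called in those fits are not counted here. The block kept the count of members called at 1, with residuals of paired replicates correlated at 0.391 and 0.53. Adamts6 (-1.39 log2), Serpine2 (-1.31), Adamts5 (-1.19) and Plau (-1.08) fell and Adam15 rose (1.02) with dox there. Of 11 inhibitors and activators 0 rose and 3 fell. The medians were -0.31 (metalloproteinases), -0.39 (ADAM), -0.60 (ADAMTS), -0.44 (inhibitors and activators), -0.30 (AP-1 and Ets) and -0.35 (members), beside -0.01 over all genes.

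In the myotube-enriched fraction edgeR called 0 members with dox, up or down, beside 0% up and 0% down of all genes. No member had an unadjusted p under 0.05, 47 genes had one upward and 32 downward, and DESeq2 called 2 genes and 0 members. The libraries of this fraction lay far apart for Mmp2, Mmp14, Timp1, Timp3 and Adam12, with or without dox. List medians were 0.11 (metalloproteinases), -0.20 (ADAM), -0.02 (ADAMTS), -0.09 (inhibitors and activators), -0.06 (AP-1 and Ets) and 0.16 (members), beside 0.04 over all genes, and 0 genes of these lists were called by edgeR, with 0 at an unadjusted p under 0.05.

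Between the fractions without dox, 0 of 6 members were called up or down by edgeR or DESeq2, beside 0.570% up and 0.0143% down of all genes, with 2 (Mmp2 and Timp1) and 16.1% of all genes at an unadjusted p under 0.05. Both were lower in every myotube-enriched library, at -0.67 (SE 0.289, adjusted p = 0.311) for Mmp2 and -0.53 (SE 0.204, adjusted p = 0.266) for Timp1. Of all genes, 82 were called here with every library, 481 by DESeq2, 480 with the replicate as a block, 233 without replicate 1 and 47 without replicate 2 of the myotube-enriched fraction, 1 without replicate 3 of the myoblast-enriched fraction, and 0 without replicate 3 of the former or replicates 1 or 2 of the latter. The residuals of paired replicates correlated at 0.154 to 0.487, and with the block 0 members were called as well. Between the fractions with dox, edgeR called 0 members up or down, beside 0% and 0% of all genes, with 0 members at an unadjusted p under 0.05, 125 genes upward and 58 downward at that level, and 9 genes and 0 members called by DESeq2. The difference of the dox effect between the fractions gave 0 larger and 0 smaller of 7 members by edgeR, beside 0% and 0%, with 0 members, 83 genes larger and 135 smaller at an unadjusted p under 0.05, and 2 genes and 0 members called by DESeq2. List medians for the myotube- against the myoblast-enriched fraction without dox were -0.17 (metalloproteinases), 0.11 (ADAM), -0.24 (ADAMTS), -0.45 (inhibitors and activators), -0.26 (AP-1 and Ets) and -0.48 (members), beside 0. With dox they were 0.25, 0.11, 0.35, 0.08, -0.03 and 0.06, beside 0.05, and for the difference of the dox effect between the fractions 0.43, -0.03, 0.49, 0.33, 0.30 and 0.48, beside 0.05. By edgeR 0 genes of these lists were called in the 3 comparisons, and at an unadjusted p under 0.05 there were 1, 1, 2, 2 and 0 without dox, 0 with dox, and 1 inhibitor or activator for the difference.

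The genes whose group means followed each member most closely over the 16 groups were found by Pearson correlation of log2 levels among the 10888 genes that averaged 5 CPM or more, as a description with no test. Groups share lines and batches with one another, so the points are not independent. For Mmp2 they were Inhbb (r = 0.959), Hopx (0.957) and Lrig1 (0.948). For Mmp14 they were the actin crosslinker Actn1 (0.938), Gper1 (0.938) and Fmnl3 (0.931). Timp1 was followed by the secreted phosphoprotein Spp1 (0.96), 3300005D01Rik (0.935) and Gm14005 (0.931). Timp2 was followed by the cytokine receptor Lifr (0.949), Peli2 (0.945) and Pik3r1 (0.943). For Timp3 the genes were the growth factor Tgfb2 (0.954), Slc7a2 (0.945) and Tln2 (0.931), and for Adam12 the collagen Col8a1 (0.961), Adcy7 (0.956) and the matrix protein Tnc (0.955). Among the members themselves the highest correlations were between Mmp2 and Timp2 (0.87), Timp3 and Adam12 (0.87) and Timp1 and Adam12 (0.86). The lowest was between Timp1 and Timp2 (0.32).

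The members are spread over the genome apart from the chromosome 9 cluster. In the GRCm38 annotation Mmp2 (ENSMUSG00000031740) lies at chr8:92827291-92853420, Mmp9 (ENSMUSG00000017737) at chr2:164940780-164955850 and Mmp14 (ENSMUSG00000000957) at chr14:54431612-54445364. Mmp13 (ENSMUSG00000050578) lies at chr9:7272514-7283331, Mmp3 (ENSMUSG00000043613) at chr9:7445822-7455975 and Mmp10 (ENSMUSG00000047562) at chr9:7502352-7510240. The inhibitors lie at chrX:20870166-20874735 (Timp1, ENSMUSG00000001131), chr11:118301069-118355740 (Timp2, ENSMUSG00000017466) and chr10:86300372-86349506 (Timp3, ENSMUSG00000020044), and Adam12 (ENSMUSG00000054555) at chr7:133883199-134232146. Timp2 and Adam12 are on the minus strand and the others on the plus strand. For Timp1 the leading transcript took 51.4% of the counts of the gene, and for the other members 96.7% or more.

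Of the 42 calls made for members in the 16 comparisons of groups, 36 were made again in every alternative fit, including each that left out 1 library, 6 were lost in at least 1 alternative, and 0 turned direction. The groups are of 3 libraries or fewer from 1 cell line, so a change between scattered libraries, as in the fractions, could pass unseen. The smallest change that could be seen was not measured, and differences past 2-fold also went uncalled. With 1 library left out, Adam12 ran to -1.20 log2 with dox in the myotube-enriched fraction. Between the fractions without dox it ran to -1.23 log2. RNA of bulk cultures was measured, and neither protein, secretion nor enzyme activity of the metalloproteinases and their inhibitors was measured here. The 24 h and 48 h libraries differ in batch, and dox was present only together with a transgene. At 48 h the iCdh23 and iMcam cells share a table of counts, and the iMyoD1 cells stand in another. Mmp3, Mmp9, Mmp10 and Mmp13 were too low for small differences to be seen.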

How the data were processed

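The authors deposited tables of estimated counts per transcript (unit expected_counts, from Salmon against mm10), in 3 tables of 12, 23 and 12 libraries. The estimated counts were summed per gene over 109617 transcripts and rounded, which gave 45706 genes. The release of the annotation was not stated. The share of values with a fraction ran from 30.97% to 34.36%. Annotated lengths were found for 98.72% of the transcripts, which hold 99.66% of the counts.

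Groups were compared with edgeR (4.0.16, R 4.3.3), with filterByExpr, TMM scaling, a quasi-likelihood fit of the groups compared and Benjamini-Hochberg adjustment over all genes that passed the filter. A gene was called at an adjusted p under 0.05 and more than 2-fold change. Differences of the dox effect were tested as interactions in the same way. TMM factors over the 47 libraries ran from 0.836 to 1.23. Alternatives were DESeq2 (1.42.0), scaling by relative log expression (RLE), a fit of every group of the tables, omission of the filter, the replicate number as a block, and leaving out each library in turn. The block was fitted in every comparison, and the report gives it where residuals of every pair of replicates correlated above 0.1. It is also given where it turned the sign of an uncalled member, which was between the fractions with dox. RLE in place of TMM moved the median of all genes by less than 0.1 log2. Leaving TMM factors out was applied to levels alone, and it moved dox against no dox by -0.01 to 0.33 log2, most in iCdh23 cells. With dox the means of Mmp2 and Mmp14 in iCdh23 cells and of Timp1 in the whole culture at 120 h, all called, were then under 2-fold apart. Tables and figures were made with Python 3.11.15, pandas 2.3.3, numpy 2.4.6 and matplotlib 3.10.9.

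The members, the related lists and the marker lists were chosen with earlier results of these data known. The rule for naming genes was that all 10 members were described in every group, genes of the lists were counted and named only where called in the comparison described, and for members with a mean of at least 5 CPM the 3 most correlated genes were named. The lists were other matrix metalloproteinases (17 genes), other ADAM proteases (9), ADAMTS proteases (18), other inhibitors and activators of metalloproteinases (17), and AP-1 and Ets factors known at metalloproteinase promoters (9). Markers of myoblasts, myotubes, proliferation, macrophages, endothelium, adipocytes and fibroblasts were summed in CPM. Promoters were RefSeq windows (GRCm38.p6) from 250 bases before to 50 bases after the start of transcription.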

Additional observations from a re-analysis of the deposited data

Results flagged for a closer look

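The effect of dox on Timp3 was more negative at 24 h than at 0 h in iMyoD1 cells, by a tested difference of -1.21 log2. For Adam12 the same difference was 1.20, and between 120 h in the whole culture and 48 h it was 1.08 log2. Between iCdh23 and iMcam cells the difference of the dox effect was -1.68 log2 for Timp3 and -2.02 for Adam12.

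For Mmp2 the log2 fold change with dox was -0.30 at 0 h, -0.41 at 24 h and 0.25 at 48 h in iMyoD1 cells, and -1.13 in iCdh23 cells at 48 h. The difference between 0 h and 48 h, between 24 h and 48 h, and between iMyoD1 cells at 48 h and iCdh23 cells was not tested. For Timp2 it was -0.49 at 24 h and 0.60 at 48 h, a difference that was not tested either.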

How the results depend on the processing

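Counts of members called that moved under an alternative are given here with the reported count first. With dox at 0 h 1 member was called, and 0 by DESeq2, 0 in the fit with all groups and 0 to 1 with 1 library left out. With dox at 24 h 1 was called, and 2 with no low-count filter and 2 with all groups, Mmp9 being the member added. With dox at 48 h 1 was called, and 2 with no filter, again by Mmp9. In iCdh23 cells 7 were called, and 6 by DESeq2, 6 with all groups and 6 to 7 with 1 library left out. In the myoblast-enriched fraction 1 was called, and 0 with all groups and 0 to 1 with 1 library left out. In the whole culture at 120 h the count was 1, and 1 to 2 with 1 library left out, and in iMcam cells it was 2, and 1 to 2, and 3 with all groups. From 0 h to 24 h with dox it was 7, and 6 to 7 with 1 library left out, and from 24 h to 48 h with dox 6, and 5 to 6. From 48 h to 120 h with dox it was 3, and 4 by DESeq2, 4 with no filter and 3 to 4 with 1 library left out. For the difference of the dox effect at 24 h against 0 h it was 2 and ran from 1 to 2, at 120 h against 48 h it was 1 and ran from 0 to 1, and for iCdh23 against iMcam it was 2 and ran from 1 to 3. The cause of these changes was not tested.

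In the myotube- against the myoblast-enriched fraction with dox the log2 difference of Adam12 was -0.01, and 0.00 with RLE scaling. With the replicate as a block it was 0.31 for Adam12, and -0.29 for Timp1 against 0.20 without the block.

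With 1 library left out the log2 fold change of some uncalled members crossed 0. It ran from -0.07 to 0.03 for Timp2 with dox at 0 h and from -0.04 to 0.04 for Mmp14 with dox at 24 h. With dox in the myotube-enriched fraction it ran from -0.10 to 0.42 for Mmp2, -0.05 to 0.50 for Mmp14, -0.19 to 0.55 for Timp1 and -0.34 to 0.18 for Timp3. Between the fractions without dox it ran from -0.33 to 0.02 for Timp3. Between the fractions with dox it ran from -0.05 to 0.29 for Mmp2, -0.16 to 0.31 for Mmp14, -0.32 to 0.52 for Timp1, -0.23 to 0.25 for Timp3 and -0.65 to 0.36 for Adam12. For the difference of the dox effect between the fractions it ran from 0.00 to 1.18 for Adam12 and -0.14 to 0.37 for Timp3, and for iCdh23 against iMcam from -0.59 to 0.20 for Timp1.

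Of 90 steps between neighbouring groups in the levels of 6 members, 65 had overlapping libraries with TMM scaling and 69 without. Without TMM factors the libraries with dox came to overlap those without for Mmp2 in the whole culture at 120 h, for Mmp14 in iMyoD1 cells at 48 h, for Timp1 in the myoblast- and Timp2 in the myotube-enriched fraction, and for Timp3 in iMcam cells. They came to lie all higher for Mmp14 and Adam12 at 24 h and for Timp2 and Timp3 at 120 h in the whole culture.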
